A study of Arabidopsis thaliana with 12 samples.

Results

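The 10 genes described here encode the plant cellulose synthase complex and its 2 closest partner proteins, read by locus identifier from a table of 38088 loci. They are the primary wall subunits CESA1 (AT4G32410), CESA2 (AT4G39350), CESA3 (AT5G05170), CESA5 (AT5G09870) and CESA6 (AT5G64740), the secondary wall subunits CESA4 (AT5G44030), CESA7 (AT5G17420) and CESA8 (AT4G18780), the endoglucanase KOR1 (AT5G49720) and the linker protein CSI1 (AT2G22125). All 10 had a mean of at least 1 FPKM (fragments per unit of transcript length and of library size) and were among the 19876 loci tested. The samples were whole 5-day-old seedlings of Arabidopsis thaliana, either the Col-0 accession or dcp5-1, which carries a mutation in DCP5, a gene whose product takes part in mRNA decapping. Seeds of both genotypes were kept at 4 °C for 3 days and grown on 1x MS agar at 22 °C under 16 h of light and 8 h of dark. All seedlings then rested for 30 min in liquid 1x MS medium and were taken after 0 or 60 min in the same medium with 150 mM NaCl, giving 4 groups of 3 libraries. No group spent 60 min in liquid medium without added NaCl, so salt and the longer time in liquid cannot be told apart, and what is called the salt response below is the difference between 60 and 0 min.

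Cellulose is spun at the plasma membrane by rosette-shaped complexes that hold several kinds of CESA subunit and take UDP-glucose from the cytosol. In growing cells the complex is built from CESA1, CESA3 and a position that CESA6 shares with its close relatives CESA2 and CESA5, while cells that lay down a secondary wall, such as xylem vessels, use CESA4, CESA7 and CESA8. KOR1 is a membrane-bound endoglucanase that associates with the complex, and CSI1 ties it to cortical microtubules, along which it moves. Seedlings in hyperosmotic medium are known to withdraw complexes from the plasma membrane, a step of protein traffic that transcript levels do not show.

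The 8 CESA proteins share the catalytic motif QVLRW near the end of their cytosolic domain, and its coding sequence shows how alike and how distinguishable the transcripts are. Each line gives 39 bases of the coding strand from the TAIR10.1 genome, 5′ to 3′, with the 5 codons of the motif in capitals.
CESA1: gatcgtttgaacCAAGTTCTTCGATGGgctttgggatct
CESA2: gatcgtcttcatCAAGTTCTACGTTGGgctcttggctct
CESA3: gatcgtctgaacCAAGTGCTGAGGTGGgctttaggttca
CESA5: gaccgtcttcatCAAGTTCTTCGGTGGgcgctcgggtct
CESA6: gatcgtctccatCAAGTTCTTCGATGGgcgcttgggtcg
CESA4: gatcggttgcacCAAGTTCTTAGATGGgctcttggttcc
CESA7: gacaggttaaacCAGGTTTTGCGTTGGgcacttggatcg
CESA8: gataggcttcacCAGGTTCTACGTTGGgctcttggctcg
The same 5 residues are written with differing codons, except in CESA1 and CESA6, whose 15 bases are identical. Over the whole coding sequence CESA5 and CESA6 were the closest pair, with 85.7% identical bases, followed by CESA2 and CESA5 with 78.5% and CESA2 and CESA6 with 77.8%, and CESA1 and CESA8 were the least alike with 66.5%. Even so, CESA5 and CESA6 share only 1 of their 50-base words. For any member other than CESA8, at most 0.662% of these words occur in the longest annotated transcript of another locus, on either strand. CESA8 shares 14.1% of its words with loci that it overlaps on the opposite strand, MYB98 by 481 bases and AT4G06845 by 81, listed at 0 to 0.0367 FPKM and at 0. CESA4 overlaps AT5G44020 on the same strand by 17 bases, and that locus stood at 222.9 to 809.5 FPKM. CESA7 overlaps AT5G17410 on the opposite strand by 66 bases, with 3.05 to 6.14 FPKM for that locus. Whether the counting used the strand is not given in the sources used here.

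In the TAIR10.1 annotation CESA1 lies on chromosome 4 from 15640490 to 15646844 with 14 exons, CESA3 on chromosome 5 from 1530132 to 1535558 with 15 exons, and CESA5 on chromosome 5 from 3072870 to 3078416 with 13 exons. KOR1 lies on chromosome 5 from 20197391 to 20200468 with 6 exons, CESA7 on chromosome 5 from 5736630 to 5741500 and CESA8 on chromosome 4 from 10312624 to 10316886, both with 12 exons. The 10 transcripts are long: 2540 nt for KOR1, 3347 to 4247 nt for the CESA genes and 7205 nt for CSI1, where the median of the nuclear protein-coding loci tested is 1699 nt.

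The windows from 250 bases before to 50 bases after the annotated start are given, each on its own strand in TAIR10.1, for CESA1 and KOR1, which rose with salt in both genotypes, and for CESA5, which fell in both. Capitals mark the 1 match found, to ACGTG, the core of the element bound by transcription factors of the abscisic acid response.
CESA1 promoter, chr4:15646795-15647094, minus strand: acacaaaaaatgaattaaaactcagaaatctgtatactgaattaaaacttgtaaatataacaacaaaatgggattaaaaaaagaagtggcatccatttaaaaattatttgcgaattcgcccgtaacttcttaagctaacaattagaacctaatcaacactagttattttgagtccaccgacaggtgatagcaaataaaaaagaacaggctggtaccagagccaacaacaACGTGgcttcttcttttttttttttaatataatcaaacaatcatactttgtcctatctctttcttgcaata
KOR1 promoter, chr5:20200419-20200718, minus strand: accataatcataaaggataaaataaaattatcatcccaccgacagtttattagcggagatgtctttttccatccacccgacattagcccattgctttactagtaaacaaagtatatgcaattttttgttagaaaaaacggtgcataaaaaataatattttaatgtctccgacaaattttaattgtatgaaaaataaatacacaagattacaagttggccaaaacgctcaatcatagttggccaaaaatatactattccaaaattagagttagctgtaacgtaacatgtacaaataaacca
CESA5 promoter, chr5:3072620-3072919, plus strand: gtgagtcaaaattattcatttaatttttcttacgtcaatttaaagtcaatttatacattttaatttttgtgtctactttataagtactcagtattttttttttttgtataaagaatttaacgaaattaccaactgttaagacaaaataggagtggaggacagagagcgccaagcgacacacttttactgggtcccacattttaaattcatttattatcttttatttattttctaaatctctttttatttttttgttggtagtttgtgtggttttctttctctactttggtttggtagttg
ACGTG was searched on both strands of all 10 windows and was present in CESA1, where its first base is at -21 from the start, and in no other member. In 27443 promoters of the same length the share with ACGTG was 26.7%. The AC element with letters ACCTACC, its variant with letters ACCAACC and the further variant ACCTAAC, to which MYB factors of secondary wall formation bind, were in none of the 10 windows and in 7.29% of all promoters, and the absence of these letters from a window of this length says nothing of the factors.

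DCP5 itself was measured first, as a check of the genotype labels. DCP5 stood at 50.7 ± 1.99 FPKM (SD, n = 3) in Col-0 and 13.0 ± 0.105 in dcp5-1 at 0 min, and at 80.1 ± 4.26 and 20.5 ± 0.22 at 60 min, so every dcp5-1 library was below every Col-0 library. The labels do not say whether the 3 libraries of a group came from separate cultures, so each p-value measures no more than how far these libraries lie apart, and that may be a technical spread. Recovered read numbers put 14520000 to 21000000 reads behind each library's scale. The members drew on 991 to 2390 reads for CSI1, 2720 to 7280 for CESA1 and 2690 to 6010 for KOR1. Only 48 to 136 reads stood behind CESA7 and 74 to 194 behind CESA8, the fewest of the members with recovered reads. Reads were not recovered for CESA4, which has 3 annotated transcripts and group means of 2.47 to 3.37 FPKM, so its precision was not assessed in this way. In 18719 nuclear protein-coding loci the change with salt followed transcript length. Of the 3457 loci with transcripts of at least 2540 nt, 72.0% were called higher and 9.89% lower in Col-0, with a median log2 change of 0.46, and 61.0% were called higher and 12.4% lower in dcp5-1, with a median of 0.31. All 10 members are in that class, so values from a fit in which the trend on length was removed are given beside the results.

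Ranked by FPKM, which is per transcript length, the order of the 10 genes was KOR1, CESA3, CESA1, CESA6, CESA2, CESA5, CSI1, CESA4, CESA8 and CESA7 at 0 min in both genotypes. At 60 min it was KOR1, CESA1, CESA3, CESA6, CESA2, CSI1, CESA5, CESA4, CESA8 and CESA7, again in both. Between the times CESA1 and CESA3 exchanged places, as did CSI1 and CESA5. The libraries of neighbours in these orders did not overlap, except those of CESA8 and CESA7 in dcp5-1 at 60 min. The summed primary wall CESA level in Col-0 at 0 min was 181.6 ± 0.265 FPKM and that of the secondary wall CESAs 7.47 ± 0.184 FPKM, or 3.95% of all 8.

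**Figure D1:**
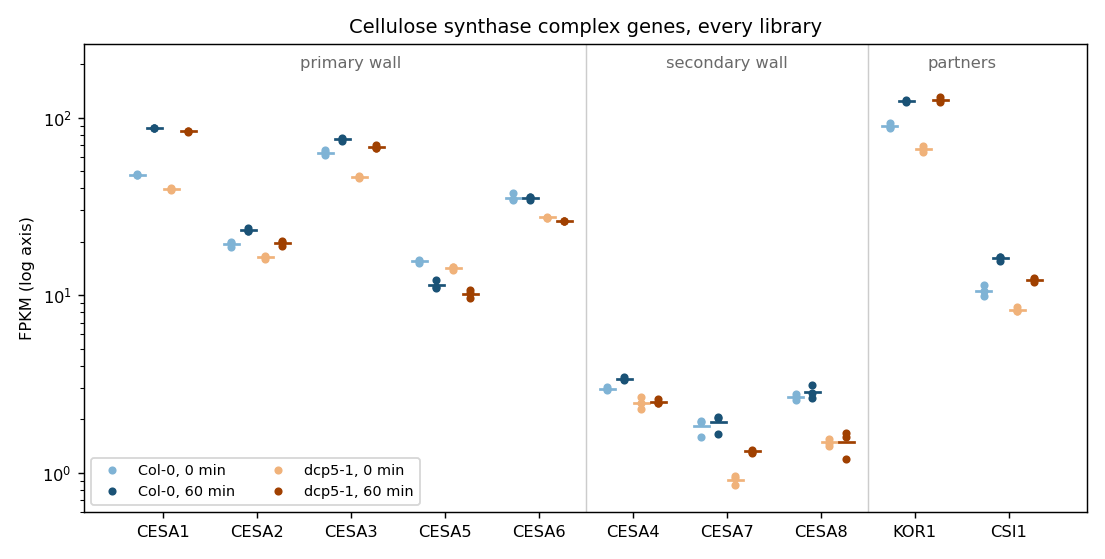
FPKM of each of the 10 genes (log axis) in every library; points are libraries and short bars are group means, with 3 libraries per group. CESA1 and KOR1 are higher at 60 min in both genotypes and CESA5 is lower, while CESA7 and CESA8 lie lower in dcp5-1 than in Col-0 at both times.

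The first comparison asked what 60 min in salt did to the complex in Col-0. CESA1, a subunit of every primary wall complex, rose 1.83-fold and KOR1 1.38-fold, CESA5 fell to 0.734 of its level, and the 3 secondary wall subunits and CESA6 were not called. On the log2 scale these 3 changes were 0.86, 0.46 and -0.42, and 0.31, 0.20 and -0.96 with the length trend removed. CESA1 read 48.0, 47.3 and 47.7 FPKM at 0 min and 87.1, 87.6 and 87.4 at 60 min. The groups were far apart and the replicates within 1 FPKM of each other; the log2(FPKM + 1) difference was 0.86 (SE 0.034, limma adjusted p = 1.02e-09). KOR1 read 88.5, 92.9 and 87.6 FPKM at 0 min and 121.9, 124.8 and 125.4 at 60 min, a log2 difference of 0.46 (SE 0.045, limma adjusted p = 2.13e-06). CESA5, which stands in for CESA6 in part of the complexes, read 15.3, 15.6 and 15.7 FPKM at 0 min and 10.9, 11.2 and 12.1 at 60 min. Its highest library at 60 min lay under its lowest at 0 min, and the log2 difference was -0.42 (SE 0.053, limma adjusted p = 2.21e-05).

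CESA3, the other obligate primary wall subunit, read 61.3, 65.6 and 63.65 FPKM at 0 min and 74.1, 75.7 and 76.8 at 60 min in Col-0. That difference of 0.25 on the log2 scale was called (limma adjusted p = 1.4e-04) but turned to -0.26, called lower, once the length trend was removed. CESA2 went from 19.4 ± 0.68 to 23.3 ± 0.604 FPKM, also a log2 difference of 0.25, which turned to -0.30 without the length trend. CSI1 went from 10.6 ± 0.764 to 16.1 ± 0.438 FPKM, a log2 difference of 0.56 (limma adjusted p = 2.36e-06) that turned to -0.15. CESA6 read 37.5, 34.6 and 34.3 FPKM before and 35.8, 34.5 and 35.9 after salt, with overlapping groups, and CESA4, CESA7 and CESA8 differed by 0.14, 0.05 and 0.07 on the log2 scale (limma adjusted p = 0.0849, 0.668 and 0.522). In all, 5 of the 10 were called higher and 1 lower, where 36.3% of all loci tested were called higher and 35.7% lower. The share called higher among the members was above that of all loci and below the 72.0% of loci with transcripts as long. The median log2 difference was 0.19 over the members and 0.01 over all loci tested. With the length trend removed, 2 of the 10, CESA1 and KOR1, were called higher and the other 8 lower. In that fit 7161 of the 19876 loci tested were called higher and 6167 lower.

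In dcp5-1 the 6 genes called in Col-0 were called again in the same direction, and CESA7 was added to them. CESA1 read 39.0, 39.9 and 39.5 FPKM at 0 min and 84.5, 84.1 and 83.15 at 60 min, 2.13-fold higher (log2 difference 1.07, SE 0.034, limma adjusted p = 2.29e-10). KOR1 read 66.3, 69.5 and 64.4 FPKM and then 131.0, 122.0 and 125.5, 1.89-fold higher (log2 difference 0.91, SE 0.045, limma adjusted p = 9.19e-09). CESA3 read 46.5, 46.9 and 45.9 FPKM and then 70.0, 67.7 and 67.3, 1.47-fold higher (log2 difference 0.55, SE 0.040, limma adjusted p = 2.15e-07). No library of these 3 genes at 60 min came near the range at 0 min. CESA5 read 14.5, 13.9 and 14.5 FPKM and then 10.3, 9.57 and 10.7, or 0.713 of its level, a log2 difference of -0.45 (SE 0.053, limma adjusted p = 1.4e-05). Without the length trend the differences of CESA1, KOR1, CESA3 and CESA5 were 0.71, 0.68, 0.21 and -0.81.

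CSI1 rose in dcp5-1 from 8.29 ± 0.282 to 12.2 ± 0.340 FPKM, by 0.50 on the log2 scale, which was 0.12 without the length trend and lost its call (0.07) without trends on length, GC content and abundance. CESA2 rose from 16.3 ± 0.276 to 19.6 ± 0.687, by 0.25, a difference that turned to -0.11 without the length trend. CESA7 rose from readings of 0.850, 0.929 and 0.957 FPKM to 1.31, 1.35 and 1.29, a log2 difference of 0.28 (limma adjusted p = 0.0227). That call was lost when replicate 1 at 0 min or replicate 2 at 60 min was left out, with differences of 0.25 and 0.27, and the difference was -0.04 without the length trend. CESA6, CESA4 and CESA8 were not called (limma adjusted p = 0.213, 0.828 and 0.994). The count was 6 of 10 higher and 1 lower, against 35.1% higher and 31.6% lower of all loci and 61.0% higher of loci as long. The median log2 difference was 0.26 over the members and 0.02 over all loci tested. With the length trend removed, 4 were called higher (CESA1, CESA3, KOR1 and CSI1) and 5 lower. In that fit 6546 of the 19876 loci tested were called higher and 5908 lower.

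**Figure D2:**
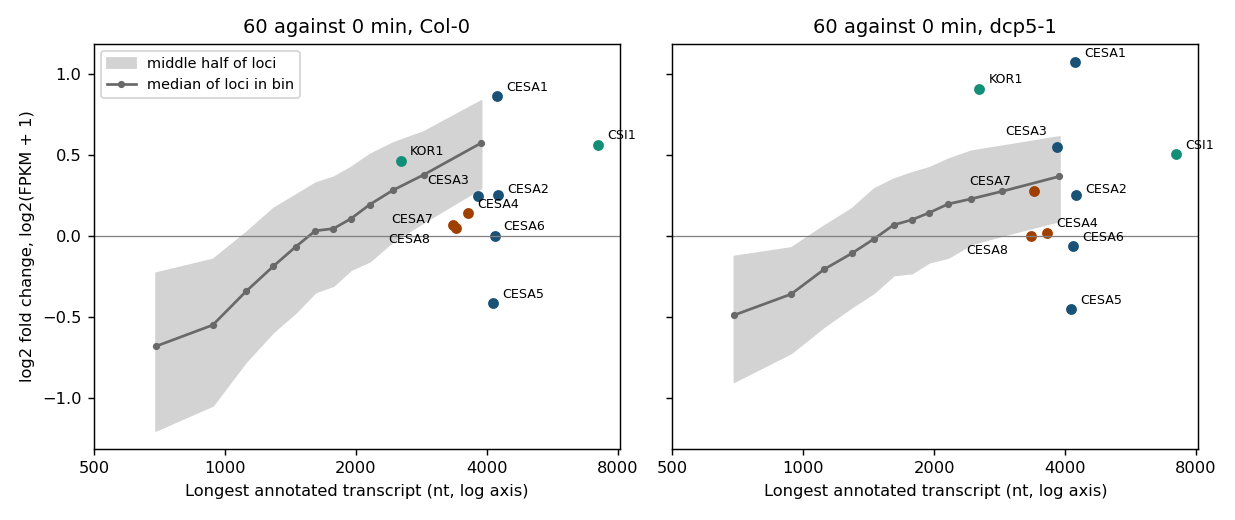
Log2 change from 0 to 60 min against the longest annotated transcript (nt, log axis) in Col-0 and dcp5-1; the grey line and band are the median and middle range of nuclear protein-coding loci in length bins, and the named points are the 10 genes. CESA1 and KOR1 lie above the band's median in both genotypes and CESA5 far below it, while CESA2 lies below it in both.

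Shares and ratios among the CESA genes do not change when all values of a library are multiplied by the same factor. Their transcripts are also of similar length, so shares and ratios were compared next. Summed levels do change with such a factor, and quantile normalization can change shares and ratios as well. The sum of the 5 primary wall CESAs went from 181.6 ± 0.265 to 233.0 ± 1.88 FPKM in Col-0 and from 143.9 ± 0.755 to 208.2 ± 2.53 FPKM in dcp5-1. The trend on length enters these sums. With it removed, 4 of the 5 genes were called lower and 1 higher in Col-0, and 3 and 2 in dcp5-1. In that fit 6167 of the 19876 loci tested were lower and 7161 higher in Col-0, and 5908 and 6546 in dcp5-1. Within the sum the share of CESA1 went from 26.25% ± 0.217 to 37.5% ± 0.320 in Col-0 and from 27.4% ± 0.305 to 40.3% ± 0.407 in dcp5-1 (SD, n = 3). The share of CESA5 went from 8.55% ± 0.132 to 4.89% ± 0.234 and from 9.93% ± 0.261 to 4.89% ± 0.261, and that of CESA6 from 19.5% ± 0.956 to 15.2% ± 0.293 and from 19.0% ± 0.166 to 12.6% ± 0.179. All 3 shares were without overlap between 0 and 60 min in both genotypes. CESA3 held 35.0% ± 1.17 and then 32.4% ± 0.406 in Col-0, but 32.3% ± 0.188 and then 32.8% ± 0.339 in dcp5-1, and CESA2 10.7% ± 0.387 and then 10.0% ± 0.306 in Col-0. In dcp5-1 CESA2 held 11.2% to 11.4% at 0 min and 9.14% to 9.57% at 60 min, without overlap.

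The ratio of CESA1 to CESA3, subunits that enter the complex together, went from 0.751 ± 0.0313 to 1.16 ± 0.0191 in Col-0 and from 0.850 ± 0.0111 to 1.23 ± 0.0188 in dcp5-1. CESA1 transcripts therefore lay below those of CESA3 in all 6 libraries at 0 min and above them in all 6 at 60 min. The ratio of CESA1 to CESA5 went from 3.07 ± 0.0656 to 7.68 ± 0.413 and from 2.76 ± 0.0906 to 8.26 ± 0.509. CESA1 relative to the sum of CESA2, CESA5 and CESA6, which share the remaining position of the complex, went from 0.677 ± 0.0117 to 1.25 ± 0.0267 and from 0.681 ± 0.0128 to 1.501 ± 0.0401. KOR1, whose transcript is shorter than those of the CESA genes so that the trend on length enters its ratio, stood to the primary wall CESA sum at 0.494 ± 0.0149 and then 0.532 ± 0.00646 in Col-0, and 0.464 ± 0.0157 and then 0.606 ± 0.0145 in dcp5-1. No test was run on these sums and ratios, since they are scores over chosen genes.

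**Figure D3:**
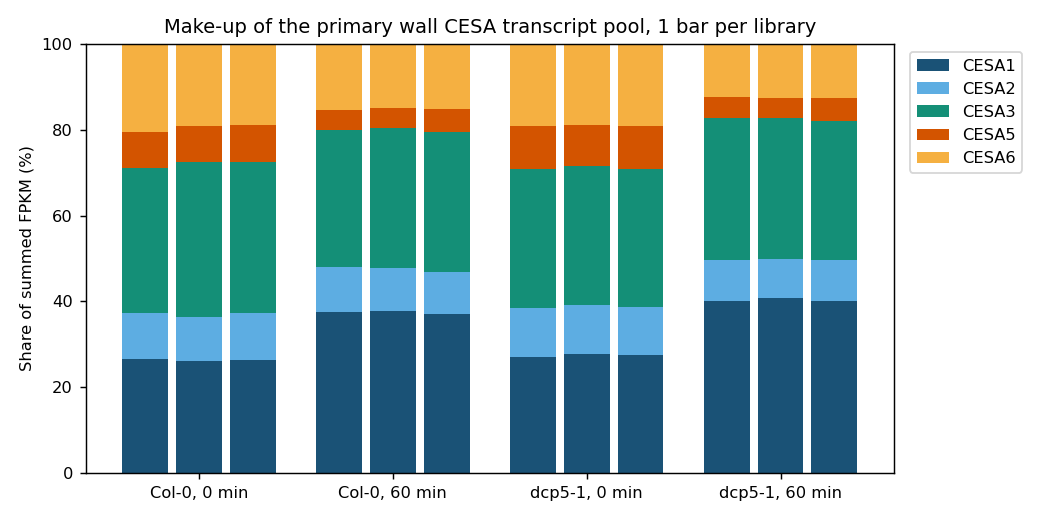
Share (%) of CESA1, CESA2, CESA3, CESA5 and CESA6 in their summed FPKM, 1 stacked bar per library and 3 per group. The CESA1 segment widens from about 26% or 27% at 0 min to between 37% and 41% at 60 min, and the CESA5 and CESA6 segments narrow.

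The second question was how the dcp5-1 seedlings differed from Col-0 before salt. Of the 10 genes 9 were lower in dcp5-1 at 0 min and none higher, where 28.1% of all loci tested were called lower and 18.8% higher; of loci with transcripts as long, 31.4% were lower. The median log2 difference was -0.34 over the members and -0.05 over all loci tested. Over the whole table the split of 3731 higher and 5582 lower moved to 4729 and 4498 when each library was centred on its median. With the length trend removed 8 of the 10 members were still called lower, where 4702 of the 19876 loci tested were lower and 4739 higher. Without trends on length, GC content and abundance 6 members were, where 4590 of all loci were lower and 4830 higher. CESA1 (-0.07) and CSI1 (-0.07) lost the call there. In bulk seedlings, fewer cells of a type and less RNA per cell cannot be told apart.

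The secondary wall subunits CESA7 and CESA8 were the most reduced. CESA7 read 1.58, 1.92 and 1.96 FPKM in Col-0 and 0.850, 0.929 and 0.957 in dcp5-1 at 0 min, a log2(FPKM + 1) difference of -0.56 (SE 0.095, limma adjusted p = 5.87e-04). CESA8 read 2.66, 2.78 and 2.565 FPKM in Col-0 and 1.55, 1.47 and 1.42 in dcp5-1, a difference of -0.57 (SE 0.093, limma adjusted p = 4.79e-04). Neither pair of groups overlapped, and because 1 FPKM is added before the logarithm these differences understate the fall of both genes. CESA4, their partner in the same complex, read 2.98 ± 0.065 FPKM in Col-0 and 2.47 ± 0.19 in dcp5-1, a difference of -0.20 (limma adjusted p = 0.0294). The CESA4 call was lost without replicate 1 of Col-0 (-0.19), replicate 2 of dcp5-1 (-0.20) or replicate 3 of dcp5-1 (-0.16), and also with the length trend removed (-0.12), under quantile normalization (-0.17), under median centring (-0.14) and with only the groups compared in the fit (-0.20). The ratio of CESA4 to CESA8 was 1.12 ± 0.0462 in Col-0 and 1.67 ± 0.0535 in dcp5-1 at 0 min, with no overlap, so the 3 subunits were not lower in proportion.

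Among the primary wall genes at 0 min, CESA3 read 63.5 ± 2.14 FPKM in Col-0 and 46.4 ± 0.513 in dcp5-1, a log2 difference of -0.44 (SE 0.040, limma adjusted p = 5.43e-06). CESA6 read 35.4 ± 1.76 and 27.4 ± 0.232 FPKM (-0.36), CESA1 47.7 ± 0.374 and 39.5 ± 0.463 (-0.27), and CESA2 19.4 ± 0.68 and 16.3 ± 0.276 (-0.24). KOR1 read 89.7 ± 2.80 and 66.7 ± 2.60 FPKM, a difference of -0.42 (SE 0.045, limma adjusted p = 2.2e-05), and CSI1 differed by -0.32 (limma adjusted p = 7.16e-04). CESA5 was not called (-0.11, 95% interval -0.23 to 0.01, limma adjusted p = 0.108), although its 3 dcp5-1 libraries lay below the 3 of Col-0. As the gene that differed least, CESA5 made up a larger share of the primary wall pool in dcp5-1, 9.93% against 8.55%.

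After 60 min in salt 8 of the 10 genes were lower in dcp5-1 and none higher, against 27.4% lower and 27.1% higher of all loci and 52.8% lower of loci as long. The median log2 difference was -0.28 over the members and -0.01 over all loci tested. CESA6 read 35.8, 34.5 and 35.9 FPKM in Col-0 and 26.1, 26.1 and 26.3 in dcp5-1, a log2 difference of -0.42 (SE 0.043, limma adjusted p = 1.17e-05). CESA8 read 2.81, 3.12 and 2.63 FPKM in Col-0 and 1.19, 1.60 and 1.67 in dcp5-1, a difference of -0.64 (SE 0.093, limma adjusted p = 1.63e-04). These 2 genes were the ones still called lower with the length trend removed, at -0.14 and -0.43. In that fit 4943 of the 19876 loci tested were lower and 5255 higher. CESA7, CESA4, CSI1, CESA2 and CESA3 differed by -0.33, -0.32, -0.37, -0.24 and -0.14 on the log2 scale. None of these 5 was called without the length trend, and CSI1, CESA2 and CESA3 turned to 0.07, 0.05 and 0.11 without the length trend. CESA5 was lower by -0.15 (limma adjusted p = 0.0341), a call that was lost without Col-0 replicate 2 (-0.16) or 3 (-0.11) or without dcp5-1 replicate 1 (-0.16) or 2 (-0.11), and that turned to 0.13 without the length trend.

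CESA1 and KOR1 were the 2 genes not called between the genotypes at 60 min. CESA1 differed by -0.06 (95% interval -0.13 to 0.02), with the dcp5-1 libraries just below those of Col-0, and KOR1 by 0.02 (95% interval -0.08 to 0.12), with overlapping groups. The scaling decided both: they were called higher in dcp5-1, at 0.23 and 0.14, with the length trend removed, and lower, at -0.21 and -0.14, under quantile normalization.

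The difference between the 2 salt responses was tested directly, as an interaction of genotype and time. It was positive, meaning a greater rise in dcp5-1, for KOR1 (0.44 on the log2 scale, SE 0.064, limma adjusted p = 9.43e-04), CESA3 (0.30, SE 0.056, limma adjusted p = 0.00357) and CESA1 (0.21, SE 0.048, limma adjusted p = 0.00995). The other 7 were not called, where 16.3% of all loci tested were called in this direction and 8.06% in the other; of loci as long, 5.96% and 19.6% were. The median interaction was -0.02 over the members and 0.04 over all loci tested. With the length trend removed the 3 interactions stood at 0.48, 0.47 and 0.41, and CESA2 (0.20) and CSI1 (0.27) were called as well. In that fit 2351 of the 19876 loci tested had a positive and 1624 a negative interaction called. With quantile normalization, which gives every library the same distribution, none of the 3 was called, at 0.16, 0.07 and -0.02 (limma adjusted p = 0.114, 0.429 and 0.8), and the split over all loci went from 3248 and 1602 to 2033 and 2077. The salt responses and the genotype differences share their libraries, so these comparisons are not independent of each other.

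**Figure D4:**
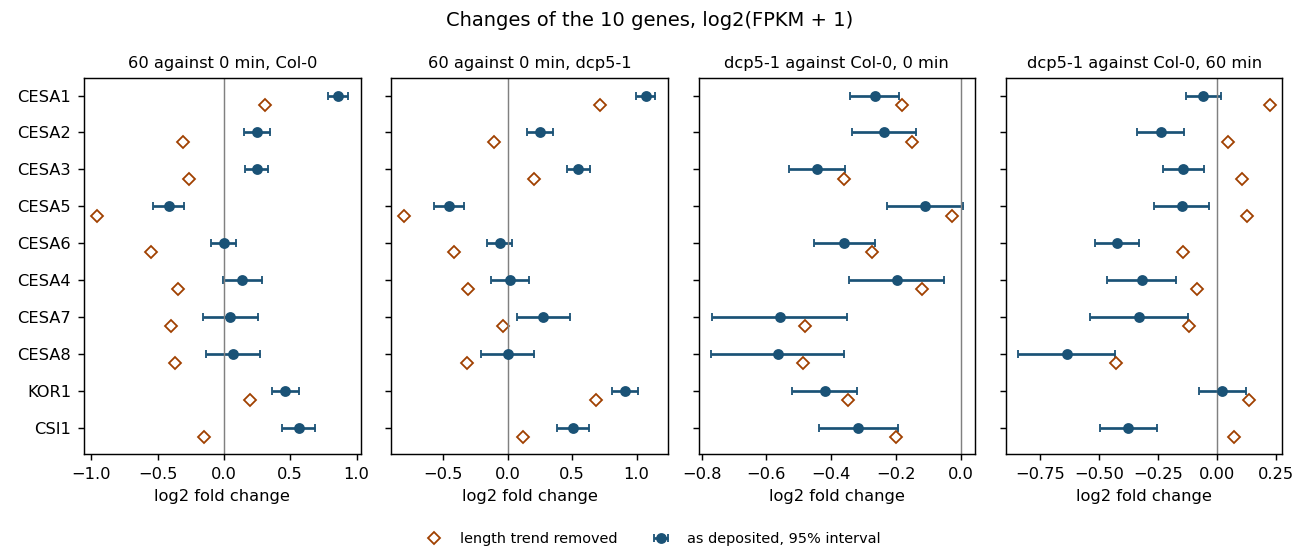
Log2 change of each of the 10 genes in the comparisons described, with the 95% interval of the deposited values (filled points) and the value with the length trend removed (open diamonds). CESA1 and KOR1 stay above 0 and CESA5 below 0 in both salt responses under either treatment of length, whereas CESA2, CESA4 and CESA7, and in Col-0 also CESA3, CESA8 and CSI1, change sign.

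The other genes of cellulose synthesis were read from 3 lists with 41 members, of which 36 were tested. In Col-0 15 of the 36 were higher and 10 lower with salt (median log2 difference 0.09), where 36.3% and 35.7% of all loci were. In dcp5-1 20 were higher and 5 lower (median 0.21), where 35.1% and 31.6% of all loci were. Among proteins of delivery and recycling, KOB1, named for a dwarf mutant with disordered cellulose, went from 7.27 ± 0.239 to 15.5 ± 0.306 FPKM in Col-0 and from 6.16 ± 0.218 to 12.6 ± 0.390 in dcp5-1, by 1.00 and 0.93 on the log2 scale. TPLATE and AP2M, subunits of the 2 adaptor complexes through which CESA proteins are taken up from the plasma membrane, rose by 1.00 and 0.92 in Col-0 and by 0.78 and 1.14 in dcp5-1. KLCR2, a kinesin light chain-related protein, fell by 0.54 and 0.24.

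Among genes of substrate supply and wall sensing, the sucrose synthase gene SUS1 rose by 1.11 on the log2 scale in Col-0 and by 0.73 in dcp5-1, and RSW3, a glucosidase of glycoprotein processing, by 0.56 and 0.80. FER, a receptor kinase of wall integrity, rose by 0.26 and 0.77, and its Col-0 value turned to -0.16 without the length trend. CINV1, a cytosolic invertase that feeds UDP-glucose synthesis, was called lower in Col-0 (-0.29) but higher under quantile normalization (0.17). THE1, a receptor kinase that senses the state of the wall when cellulose synthesis is impaired, fell from 41.7 ± 2.71 to 12.1 ± 0.447 FPKM in Col-0 and from 45.1 ± 1.92 to 13.2 ± 0.833 in dcp5-1, by 1.70 in each. Its fall was the largest of the tested genes of these lists in both genotypes. Among the partners of the complex, CSI3, a relative of CSI1, rose in Col-0 by 0.45, which turned to -0.26, called lower, without the length trend. The GPI-anchored protein gene COB rose in dcp5-1 by 0.36, the chitinase-like gene CTL1 rose by 0.36 and 0.35, and KOR2, a relative of KOR1, fell by 0.52 and 0.41. Apart from CSI3, FER and CINV1 in Col-0, as given, the directions named here were the same with the length trend removed and with quantile normalization.

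Before salt, 6 of these 36 genes were higher in dcp5-1 and 15 lower, with a median of -0.04, where 18.8% and 28.1% of all loci were. At 60 min 12 were higher and 11 lower, with a median of 0.02, where 27.1% and 27.4% of all loci were. CINV1 read 122.6 ± 8.88 FPKM in Col-0 and 72.0 ± 1.94 in dcp5-1 at 0 min (-0.76, limma adjusted p = 6.75e-07), and FER differed by -0.39. The kinase gene FEI1 was higher in dcp5-1 by 0.52, at 109.7 ± 2.76 FPKM against 76.4 ± 2.37. At 60 min CYT1, which makes GDP-mannose, was higher by 0.41 and SUS1 and TPLATE differed by -0.34 and -0.38, both no longer called without the length trend. The interaction was positive for 9 of the 36 and negative for 1, where 16.3% and 8.06% of all loci were. UGP1, which makes UDP-glucose, had the largest of them (0.63), with 34.2 ± 2.54 and 35.6 ± 1.19 FPKM in Col-0 at 0 and 60 min and 27.9 ± 0.541 and 45.5 ± 1.54 in dcp5-1, followed by CINV1 and FER at 0.52 each.

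Because CESA4, CESA7 and CESA8 are made in xylem, genes of that tissue were set beside them. Of 16 xylem and secondary wall genes, 8 were higher, 4 lower and 4 not called in dcp5-1 at 0 min, where 18.8% and 28.1% of all loci were higher and lower. Their summed level was 185.2 to 196.8 FPKM in Col-0 and 247.3 to 252.7 in dcp5-1. Most of that gain lay in XCP1, MC9, XCP2 (25.6 and 41.1 FPKM) and RNS3 (27.8 and 45.3 FPKM). IRX14, GAUT12, FRA8, GUX1, LAC4 and LAC17, called or not, had lower means in dcp5-1. None of the 16 was at 0 in all libraries of a group. The higher ones included genes of vessel cell death and its proteases: XCP1 read 13.0 ± 1.39 FPKM in Col-0 and 23.9 ± 1.93 in dcp5-1 (0.83 on the log2 scale), and MC9 13.7 ± 0.95 and 25.1 ± 0.773 (0.83). The laccase LAC11 was higher by 0.82. TED7 and TED6, partners that bind the secondary wall complex in differentiating vessels, were higher by 0.99 and 0.64, and at 60 min by 1.18 and 0.71. They come from the list of complex partners, of which 10 were tested, with 5 higher and 1 lower at 0 min. The lower partner was COBL4, at 2.24 ± 0.161 FPKM in Col-0 and 1.68 ± 0.0735 in dcp5-1 (-0.27, limma adjusted p = 0.0159). The lower ones of the 16 included FRA8 (-0.97) and GUX1 (-0.50), both of xylan synthesis, while IRX10, of the same pathway, was higher by 0.27. The part of xylem content in the CESA result was not tested.

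Of 16 regulators of secondary wall formation, 10 were tested. At 0 min 9 of them were not called, where 18.8% of all loci were higher in dcp5-1 and 28.1% lower. VNI2, which represses vessel formation, was higher in dcp5-1 by 0.34 (80.7 ± 3.10 FPKM in Col-0 and 102.7 ± 1.09 in dcp5-1). With the length trend removed 3 of the 10 were called higher, where 4739 of the 19876 loci tested were. Most of the 10 stood at a few FPKM, where log2(FPKM + 1) understates change. At 60 min VNI2 was higher by 0.79. KNAT7, a repressor of secondary wall genes, fell with salt by 0.56 in Col-0 and by 0.90 in dcp5-1. NST2 and NST3 were listed at 0 in all 12 libraries. For the shoot, 6 genes summed to between 19710 and 23280 FPKM in Col-0 at 0 min and to between 10800 and 12200 in dcp5-1. After salt they summed to between 6373 and 7442 and between 6307 and 6525. Whether such sums measure the make-up of the seedlings was not tested. The sum is carried by RBCS2B and 3 antenna genes, the 4 shoot genes called lower at 0 min, where 28.1% of all loci were lower. The stomatal genes SPCH (1.82 ± 0.138 and 1.71 ± 0.0888 FPKM) and FAMA (15.5 ± 0.484 and 15.7 ± 1.02) were not called there, and both rose with salt in Col-0. The 6 root genes summed to between 85.4 and 86.3 FPKM in Col-0 and to between 72.3 and 80.6 in dcp5-1 at 0 min, with NRT2.1 at 0 in Col-0; at 60 min the ranges were 65.7 to 76.5 and 58.4 to 62.7. Most of this sum is CASP1, at 59.4 ± 0.465 FPKM in Col-0 and 48.1 ± 5.56 in dcp5-1 at 0 min. Of the 4 root genes tested, 2 were lower in dcp5-1 at 0 min, IRT1 was higher (9.56 ± 0.744 and 13.4 ± 1.77 FPKM) and SCR was not called. Of all loci tested, 28.1% were lower and 18.8% higher. The part of these differences in the values of the 10 genes was not tested.

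**Figure D5:**
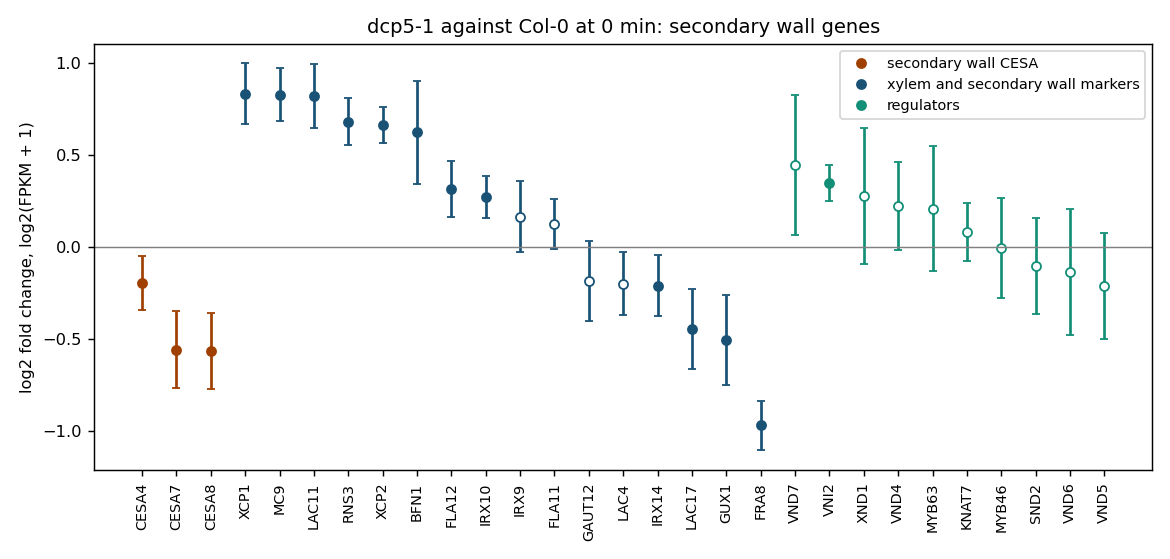
Log2 difference of dcp5-1 from Col-0 at 0 min for the secondary wall CESA genes, the xylem markers and the secondary wall regulators tested, 1 point per gene; filled points are called and open points are not. CESA7 and CESA8 lie at -0.56 and -0.57, between FRA8 and GUX1 and at the opposite end from XCP1 and MC9.

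Likeness of pattern was measured as Pearson's r of log2(FPKM + 1) over the 12 libraries, among 6303 loci with a symbol and a mean of at least 5 FPKM. It is given as a description. The libraries fall into 4 groups, so r depends largely on the order and spacing of the group means. CESA1, CESA3 and CESA6 did not share 1 pattern (r = 0.0746 for CESA1 with CESA6 and 0.461 for CESA3 with CESA6), so their mean profile is that of no single gene. The loci most like that mean profile were GAMMA-VPE (r = 0.996), LON2 (0.995), BGLU18, BBD1 and STY46 (0.994 each). Those most like the profile of CESA4, CESA7 and CESA8 were DCP5 itself and PHOT1 (0.989 each), LHCB2.3, BXL2 and ALDH6B2 (0.988 each). DCP5 carries the mutation that defines the genotypes.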

How the data were processed

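The authors deposited 1 table of FPKM values, which are relative to transcript length and to library size, with 38088 loci and 12 libraries; 1 line without values was dropped. Per the submitters' processing notes, Bowtie and the TAIR10 build were used; the quantification program, the annotation and the use of strand were not given in the sources used here. Identifiers of 37778 loci matched the TAIR10.1 RefSeq annotation, which gave names, lengths and coordinates, and sequences were read from its genome. Depth was estimated from the steps of the FPKM values: over 10863 single-transcript genes longer than 1000 nt, with a length correction of 255 nt, 98.9% to 99.5% of the values up to 10 reads lay within 0.1 of a whole read. Those reads are not independent molecules, so they bound counting error only.

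Values were tested as log2(FPKM + 1), which understates the change of low genes, in the 19876 loci whose mean reached 1 FPKM. limma 3.58.1 in R 4.3.3 fitted the 4 group means with a trended variance prior (8 residual and 3.29 prior degrees of freedom). All tests were two-sided; p-values were adjusted by Benjamini and Hochberg's method across the tested loci, and calls were made at an adjusted p below 0.05. The procedure was tested on simulated data. Alternatives were a pseudocount of 0.1, no filter, quantile normalization, median centring, removal of trends on length (a spline with 5 degrees of freedom) and on length, GC and abundance, an untrended prior, only the groups compared, a replicate block, and each library left out in turn. Python 3.11.15 with numpy 2.4.6, pandas 2.3.3, matplotlib 3.10.9 and Biopython 1.88 was used for tables, sequences and figures.

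All 10 members are named, and of each companion list up to 2 called genes per direction and comparison, chosen from those with the largest log2 change and followed into the other comparisons. LAC11, IRX10, XCP2, RNS3, IRX14, GAUT12, LAC4, LAC17, the NST genes, NRT2.1 and the shoot and root genes were named after their values were seen. Not every gene the rule admits is described. The members and lists were chosen with earlier results of these data known. Genes that the reference does not name are left out of the text.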

Additional observations from a re-analysis of the deposited data

Results flagged for a closer look

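Of the 10 genes, 3 had a salt response that differed between dcp5-1 and Col-0 by the test of the difference itself. Over all loci tested, 16.3% had a positive interaction called and 8.06% a negative one, and of loci as long 5.96% and 19.6% did. The median interaction was -0.02 over the members and 0.04 over all loci tested. The interaction was 0.21 on the log2 scale for CESA1, 0.30 for CESA3 and 0.44 for KOR1, each a greater rise in dcp5-1 (limma adjusted p = 0.00995, 0.00357 and 9.43e-04). In each, the dcp5-1 libraries lay below Col-0 at 0 min; at 60 min KOR1 overlapped between the genotypes and CESA1 and CESA3 did not. None of the 3 was called after quantile normalization.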

How the results depend on the processing

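Calls that held under all 22 alternatives were CESA1, CESA5 and KOR1 for salt in Col-0, these and CESA3 in dcp5-1, CESA2, CESA3, CESA6, CESA7, CESA8 and KOR1 between genotypes at 0 min, and CESA6 and CESA8 at 60 min; of the interactions none held under all 21. Over single genes, 995 values kept their call or lack of one, whatever the sign of those not called, 45 reversed with a call before or after, 34 lost the call and 16 gained one. The cause of these shifts was not tested. Unstated replicate origin and the low read numbers of CESA7 and CESA8 limit precision, and reads were not recovered for CESA4.

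Removing the trend on length, or those on length, GC and abundance, moved the members' calls in Col-0 salt from 5 higher and 1 lower to 2 and 8, or 2 and 6. In dcp5-1 salt 6 higher and 1 lower became 4 and 5, or 3 and 5; median centring gave 2 lower. Between genotypes at 60 min 0 higher and 8 lower became 2 and 2, or 1 and 2. Without the 3 trends 6919 of the 19876 loci tested were higher and 6101 lower in Col-0 salt. The counts were 6388 and 5876 in dcp5-1 salt, and 5127 and 4900 between genotypes at 60 min. The 3 interactions became 5 without the length trend, and 0 higher with 1 lower (CESA6) under quantile normalization. Of the other cellulose genes, 5 lower in dcp5-1 salt became 11, or 12, and 11 lower at 60 min became 4, or 3. Their 6 higher at 0 min became 11 under quantile normalization, median centring or removal of 3 trends. Over the 19876 loci tested, 3731 higher became 4796, 4729 and 4830 in these 3 settings. Their 1 negative interaction became 2 without the filter or without the variance trend, 3 under quantile normalization or removal of 3 trends and 0 without the length trend, and ranged from 0 to 3 when 1 library was left out. Over all loci, 1602 negative interactions became 1523 of 27544 without the filter and 1630 of 19876 without the variance trend. They became 2077 under quantile normalization, 1652 without 3 trends and 1624 without the length trend. Leaving out 1 library gave 1080 to 1854.

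Log2 differences that reversed, with a call before or after, are given without the length trend and then without the 3 trends. In Col-0 salt they were -0.305 and -0.27 for CESA2, -0.26 and -0.0543 for CESA3, -0.35 and -0.38 for CESA4, -0.40 and -0.37 for CESA7, -0.37 and -0.41 for CESA8, and -0.15 and -0.11 for CSI1, and quantile normalization gave 0.19 for CESA6. In dcp5-1 salt they were -0.11 and -0.14 for CESA2, -0.31 and -0.31 for CESA4, and -0.0389 and -0.0189 for CESA7. Between genotypes at 60 min they were 0.23 and 0.11 for CESA1, 0.13 and 0.10 for CESA5, and 0.0736 and 0.11 for CSI1, with 0.0466 for CESA2 and 0.11 for CESA3 without the length trend alone and -0.14 for KOR1 under quantile normalization. In the same sense the interaction reversed to 0.27 for CSI1 without the length trend and to -0.0242 for CESA1 under quantile normalization. Recovered reads per full transcript length put the summed primary wall CESA level at 170.2, 218.4, 134.9 and 195.2 in Col-0 at 0 and 60 min and dcp5-1 at 0 and 60 min; CESA4 has 3 transcripts, so this was not run for the secondary wall sum, and a fit of only the groups compared does not exist for the interaction.

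The labels do not say whether replicate numbers pair the libraries, and deviations from means of 3 libraries cannot decide it. In these deviations, 2 of 18 same-number pairs correlated over 0.1 (range -0.132 to 0.255), and 3 of 12 libraries correlated best with their own number. The 2 pairs were dcp5-1 at 0 with 60 min, for replicate 1 (0.112) and replicate 3 (0.255). With the replicate block the members called stayed at 5 higher and 1 lower, 6 and 1, 0 and 9, 0 and 8, and 3 and 0 in the 5 comparisons. Among the 19876 loci tested, 7178 were higher and 7075 lower in Col-0 salt with the block, and 6871 and 6235 in dcp5-1 salt. The numbers between genotypes were 3675 and 5490 at 0 min and 5368 and 5327 at 60 min, and 3117 and 1443 for the interaction. With the block and the length trend removed the members called were 2 and 8, 3 and 4, and, between genotypes at 60 min, 2 and 2. The reversed values were those without the length trend. The other cellulose genes then had 10 lower in dcp5-1 salt, 8 and 3 lower between genotypes at 0 and 60 min, and 0 negative interactions. Among all loci tested, 7092 were then higher and 6098 lower in Col-0 salt, and 6494 and 5842 in dcp5-1 salt. Between genotypes 4643 were higher and 4611 lower at 0 min, and 5188 and 4862 at 60 min. The interaction was positive for 2228 loci and negative for 1486.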

Other observations

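The CSLD family, relatives of the CESA genes that make wall polysaccharide at growing tips, had 3 of 6 members above the filter. CSLD2 fell with salt from 17.8 ± 0.884 to 12.4 ± 0.581 FPKM in Col-0 and from 17.3 ± 0.385 to 10.8 ± 0.40 in dcp5-1, by 0.49 and 0.63 on the log2 scale. CSLD3, needed for root hair growth, fell from 17.4 ± 0.200 to 11.3 ± 0.443 FPKM and from 14.5 ± 1.02 to 8.55 ± 0.285, by 0.59 and 0.70. Both falls were also called in each genotype with the length trend removed and after quantile normalization. CSLD5 was higher by 0.25 in both genotypes, but with the length trend removed it was called lower in Col-0 (-0.27). The remaining CESA genes were close to the floor, with CESA9 at 0.119 to 0.597 FPKM and CESA10 at 0 to 0.0488 FPKM as group means.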
